A study of Mus musculus with 6 samples.

Results

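The 10 genes described here are Nr4a1, Nr4a2, Nr4a3, Egr1, Egr2, Egr3, Ier2, Ier3, Dusp1 and Rasgef1b, a set of immediate early genes read with 11 probes out of the 39429 probes and 31791 gene names of a mouse expression array. They were chosen by name, with earlier results of the same genotype comparison known: Nr4a1 and Rasgef1b were already among the genes that stood higher in the knockout with the smallest p. Their differences between genotypes are therefore a description, and the counts of limma calls printed with them are not a test of these genes. Of the 10 genes, 8 (9 probes) were well above background on all 6 arrays, and Nr4a3 and Egr3 were not well above background on any array.

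The arrays measured total RNA from ovaries of 20-week-old female C57BL/6J mice, 3 of them wild type and 3 carrying the knockout of SeBP1, the selenium-binding protein 1 gene (Selenbp1). Strain, sex, age and tissue were shared by all 6 samples, and the labels give neither the stage of the ovarian cycle nor the deleted part of the gene. The labels number the samples of a genotype without naming animals, so a p-value here measures the spread between these samples. Values are log2 of a probe's signal over the 75th percentile of its array, so that 0 lies at that percentile and 1 unit is a doubling.

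Immediate early genes are transcribed within minutes of a stimulus, from factors that are already present and become phosphorylated, and their messages are short-lived. Nr4a genes encode orphan nuclear receptors that bind DNA as monomers or dimers, and Egr genes encode zinc-finger transcription factors that bind GC-rich sites. In the ovary, the surge of luteinizing hormone acts through cyclic AMP and the MAP kinases and induces Nr4a and Egr genes in granulosa and theca cells. Growth factors and inflammatory signals induce them as well.

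Selenbp1, the deleted gene, was read by 1 probe (A_55_P1961014, chromosome 3, 94748621 to 94748680, build mm9). Its signal was 2.68, 2.53 and 2.59 on the 3 wild-type arrays, in replicate order, and -0.11, 0.02 and -0.37 on the 3 knockout arrays. Both sets were tight and far apart. The difference of -2.75 (SE 0.13) was a 6.72-fold lower signal, and the knockout signal stayed well above background. The sources used here do not say whether the probe lies in the deleted part. With an adjusted p of 0.0104 by limma, Selenbp1 was the single call among 24326 probes (0.00411%), and leaving out single arrays ended that call in 4 of 6 cases. The adjusted p by limma was 0.167 and 0.144 with wild type replicate 1 or 2 left out, and 0.143 and 0.0640 with knockout replicate 1 or 3 left out, while the difference stayed between -2.84 and -2.64. Without wild type replicate 3, 19 genes were called.

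The 6 arrays were near each other in depth, with wild type replicate 3 the lowest on both measures that follow. Between 61.6% and 69.3% of spots were well above background, the 75th percentile lay between 1309 and 1759 intensity units, and 0 spots were saturated. Correlations over the kept probes were 0.983 to 0.993 within wild type, 0.980 to 0.990 within knockout and 0.977 to 0.991 between them. Wild type replicates 1 and 2 were on one slide, scanned apart from the other, and wild type replicate 3 lay with all 3 knockout arrays on slide 2. The comparison was therefore also made on slide 2 alone, against the single wild-type ovary there, which is also the array of lowest depth. The markers of ovarian cells were present: all 10 of the granulosa list and all 8 of the oocyte list were kept and well above background on every array.

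In outline, Nr4a1 and Rasgef1b stood higher in all 3 knockout ovaries than in any wild-type ovary, Nr4a2 did so by a small margin on 1 of its 2 probes, and Egr1, Egr2, Ier2, Ier3 and Dusp1 overlapped between genotypes. Knockout replicate 1 carried the highest value of Nr4a1, Egr2, Ier2 and Ier3. The genotype mean was higher in the knockout for 6 of the 8 kept genes, where 45.6% of all kept probes were higher. The median difference of the 8 was 0.34, against -0.02 over all kept probes. Without knockout replicate 1, 3 of the 8 were higher and the median was -0.11. With limma, 0 of the 8 were called at an adjusted p under 0.05, where 0.00411% of all kept probes were called. At an unadjusted p under 0.05 there were 3, all higher (Nr4a1, Rasgef1b and Nr4a2), where 3.95% of all kept probes lay under it and 2.2% did so as higher. The same 3 did not overlap between genotypes, where 4.06% of all kept probes stood apart as higher. Since earlier values of this comparison chose the genes, nothing is read from these counts.

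**Figure D1:**
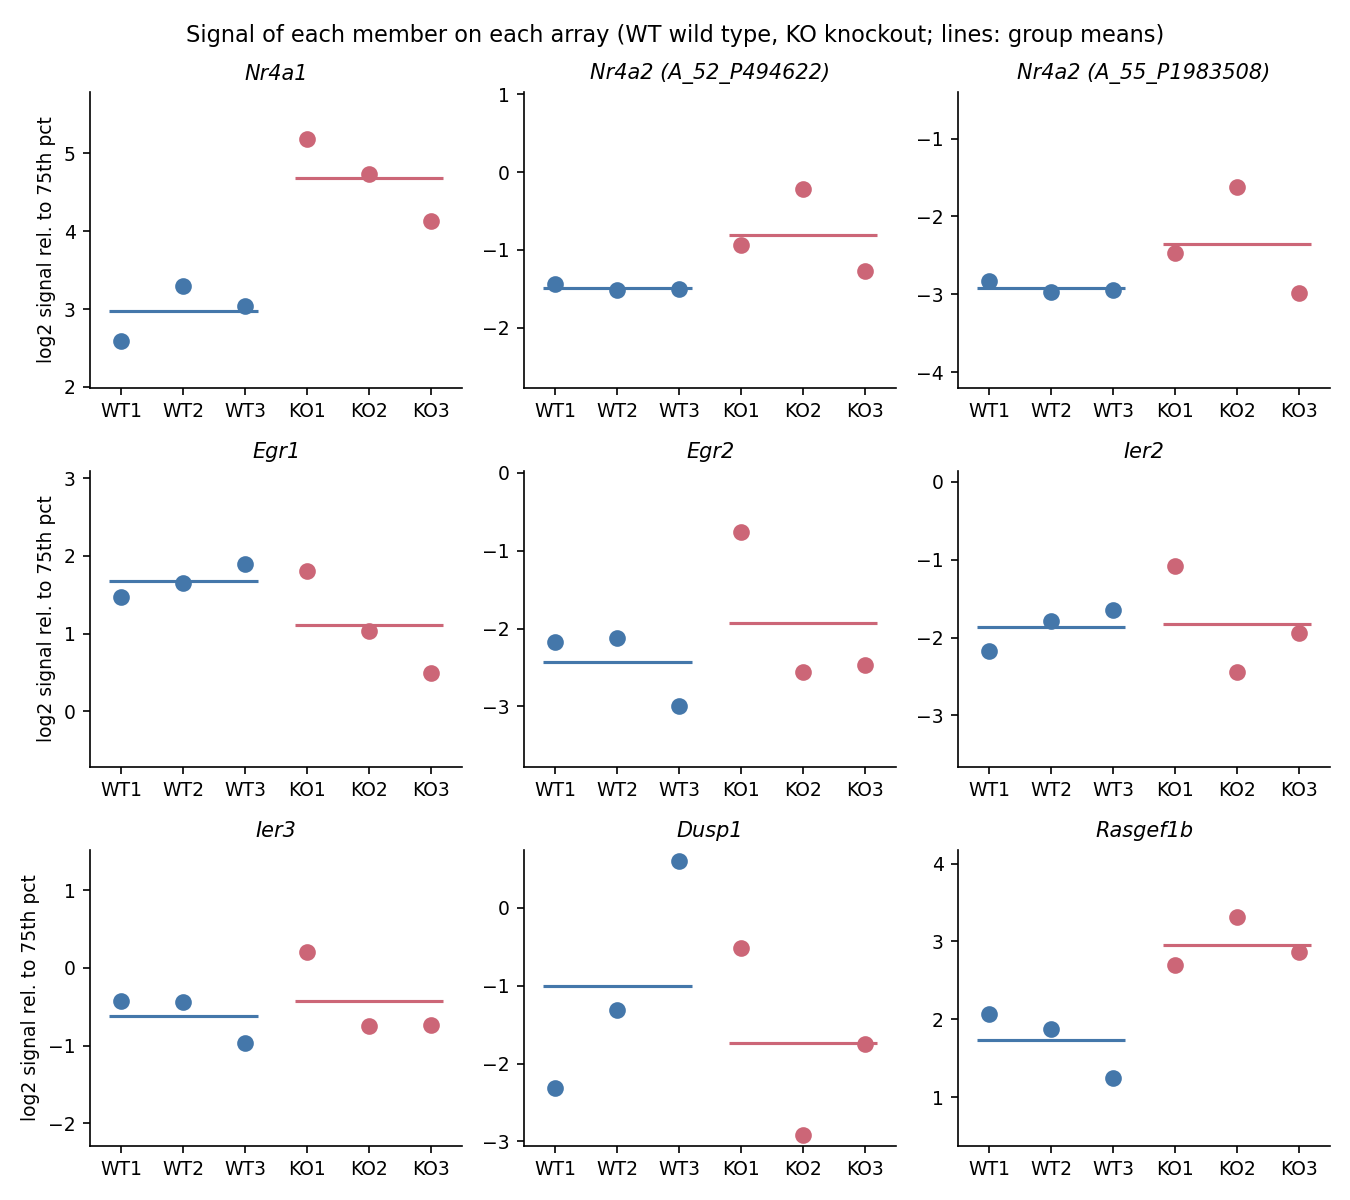
Log2 of the signal over the array's 75th percentile (vertical axis) of each kept probe on the 6 arrays (horizontal axis: WT1 to WT3, wild type; KO1 to KO3, knockout), with lines at the genotype means. The genotypes are apart for Nr4a1, for Rasgef1b and, by 0.16, for the first Nr4a2 probe, and KO1 carries the highest point of Nr4a1, Egr2, Ier2 and Ier3.

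Nr4a1 (Nur77), the nuclear receptor that in granulosa and theca cells responds to luteinizing hormone, was read by probe A_51_P239654 (chromosome 15, 101105071 to 101105130, plus strand, build mm9). The wild-type ovaries had log2 signals of 2.59, 3.30 and 3.04, and the knockout ovaries 5.19, 4.74 and 4.13. In intensity units these were 10552, 15639 and 10802 against 59851, 39907 and 28967. The lowest knockout ovary lay 0.82 above the highest wild-type ovary, a gap smaller than the range of 1.06 among the knockout ovaries themselves. The wild-type mean was 2.98 ± 0.36 and the knockout mean 4.69 ± 0.53 (SD, n = 3 each), a difference of 1.71 (SE 0.31), or 3.27-fold. On slide 2 alone the difference was 1.64. In RNA from a whole ovary, more cells of a type that expresses a gene and more RNA per cell cannot be told apart.

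Nr4a2 (Nurr1), a close relative of Nr4a1, was read by 2 probes on chromosome 2. Probe A_52_P494622 (56960699 to 56960758, minus strand, mm9) gave -1.44, -1.52 and -1.50 in wild type and -0.93, -0.22 and -1.27 in knockout. The wild-type ovaries lay within 0.08 of each other, and the knockout ovaries spread over 1.06, with replicate 2 highest and replicate 3 only 0.16 above the top of wild type. The difference was 0.68 (SE 0.26), or 1.60-fold, and 0.69 on slide 2. It was 0.38 without knockout replicate 2.

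The other Nr4a2 probe, A_55_P1983508 (56959637 to 56959696, minus strand, mm9), gave -2.83, -2.97 and -2.95 in wild type and -2.47, -1.62 and -2.98 in knockout. Its knockout replicate 3 was the lowest of the 6 arrays, so the genotypes overlapped on this probe. The difference was 0.56 (SE 0.33), and 0.60 on slide 2. It was 0.20 without knockout replicate 2 and 0.87 without knockout replicate 3. Both probes placed knockout replicate 2 first and replicate 1 next, and over the 6 arrays they had a Pearson r of 0.977 (exact permutation p = 0.0153, two-sided) and a Spearman rho of 0.657 (exact p = 0.175). The relation rested on those 2 ovaries, since without them the r was -0.140. Below, Nr4a2 stands for the first probe.

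Nr4a3 (NOR-1), which completes the receptor family, had 1 probe (A_51_P128397, chromosome 4, plus strand) printed at 10 spots. On no array was its signal well above background, and it was left out of the fit, so no level or difference is given.

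The starts of the 3 Nr4a genes are shown because these receptors are textbook targets of cyclic AMP signalling, and because Nr4a1 is the gene of the set with the widest gap between genotypes. Each line holds the 250 bases before the annotated start, 5′ to 3′ on the gene's strand, from RefSeq (GRCm38.p6, another build than that of the probes): chr15:101266596-101266845 (plus strand) for Nr4a1, chr2:57124004-57124253 (minus strand) for Nr4a2 and chr4:48045055-48045304 (plus strand) for Nr4a3. Capitals mark matches, on either strand, to the short CRE TGACG, which reads as CGTCA when it lies on the opposite strand, to the EGR site GCGNGGGCG and to the TATA box, which is spelled TATAAA.
Nr4a1: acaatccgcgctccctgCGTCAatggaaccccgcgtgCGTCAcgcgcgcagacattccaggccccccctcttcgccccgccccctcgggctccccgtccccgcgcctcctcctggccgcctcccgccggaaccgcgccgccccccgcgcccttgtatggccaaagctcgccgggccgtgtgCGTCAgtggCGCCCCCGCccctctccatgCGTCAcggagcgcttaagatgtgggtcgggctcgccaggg
Nr4a2: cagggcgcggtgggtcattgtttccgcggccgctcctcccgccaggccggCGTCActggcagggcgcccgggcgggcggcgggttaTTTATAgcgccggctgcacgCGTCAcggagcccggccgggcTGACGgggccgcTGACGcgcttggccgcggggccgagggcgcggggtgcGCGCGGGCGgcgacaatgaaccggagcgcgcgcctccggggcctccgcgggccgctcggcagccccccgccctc
Nr4a3: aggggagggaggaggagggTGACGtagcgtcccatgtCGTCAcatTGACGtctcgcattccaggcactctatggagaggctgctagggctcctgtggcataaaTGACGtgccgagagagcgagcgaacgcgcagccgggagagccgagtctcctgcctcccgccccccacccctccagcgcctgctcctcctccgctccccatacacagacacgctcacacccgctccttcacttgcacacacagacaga

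Each of the 3 windows held 4 matches to TGACG, the short form of the cyclic AMP response element. Among 32851 such windows of 27025 genes, 17.8% held at least 1 match and 0.137% held 4 or more. In Nr4a1 the matches began at -233, -213, -69 and -40 relative to the start, in Nr4a2 at -200, -144, -123 and -111, and in Nr4a3 at -231, -213, -205 and -147. An EGR site lay at -60 to -52 in Nr4a1 and at -74 to -66 in Nr4a2, where 4.7% of all windows held one, and Nr4a2 had a TATA box at -164 to -159, as 12.4% of all windows did. None of the 3 windows held the full CRE TGACGTCA (1.55% of all windows), the AP-1 site TGANTCA (6.75%), the receptors' own binding site AAAGGTCA, called NBRE (1.34%), or a CArG box (1.47%). A match is a run of letters, not a measured binding site. Nr4a1, and Nr4a2 on the first of its probes, stood higher in all 3 knockout ovaries than in any wild-type ovary. Among the knockout ovaries, Nr4a1 was highest on replicate 1 and Nr4a2 on replicate 2. Nr4a3 had no measured level, so no pattern over the arrays is given for the 3 genes together. Whether the matches bear on these values was not tested.

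**Figure D2:**
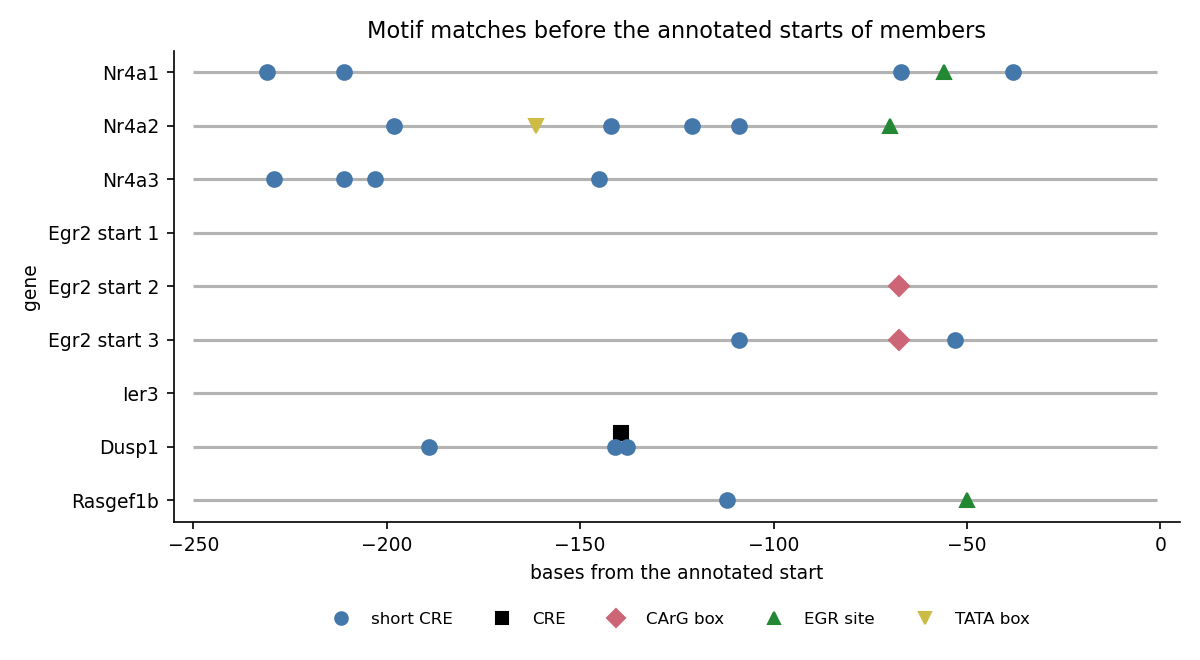
Position of motif matches (horizontal axis, bases from the annotated start) in the 250 bases before the starts of the members found in the RefSeq table, 1 line per start, with the first 3 of 5 Egr2 starts. The 3 Nr4a genes each carry 4 short CRE matches, Dusp1 carries a full CRE, and the Egr2 starts 2 and 3 carry a CArG box.

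Egr1, the best-studied member of the Egr family, a zinc-finger factor induced by growth factors and by gonadotropins, went the other way in the means. Its probe A_51_P367866 gave 1.47, 1.65 and 1.89 in wild type and 1.80, 1.04 and 0.49 in knockout. The wild-type ovaries were close together and knockout replicates 2 and 3 lay below all of them, but knockout replicate 1 was the second highest of the 6, so the genotypes overlapped. The wild-type mean was 1.67 ± 0.21 and the knockout mean 1.11 ± 0.66 (SD, n = 3 each). The difference was -0.56 (SE 0.33), and -0.77 on slide 2. It was -0.90 without knockout replicate 1 and -0.25 without knockout replicate 3.

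Egr2 (Krox20), a relative of Egr1 best known for its part in hindbrain and Schwann cell development, was read by probe A_55_P2033362 (chromosome 10, 67004798 to 67004857, plus strand, mm9). It gave -2.17, -2.12 and -2.99 in wild type and -0.76, -2.56 and -2.47 in knockout. Knockout replicate 1 lay 1.36 above the next array (2.56-fold), and the other 2 knockout ovaries lay inside the wild-type range. The difference was 0.50 (SE 0.52), and 1.06 on slide 2, where the single wild-type ovary, replicate 3, was the lowest array. It was -0.09 without knockout replicate 1 and 0.22 without wild type replicate 3. Egr3, the third Egr gene of the set (A_55_P2032412, chromosome 14, 70479222 to 70479281, mm9), had no array with a signal well above background.

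Egr2 had 5 annotated starts, and those 2 to 5 carried a CArG box, the site of serum response factor, in the bases before them, where 1.47% of all windows did. The box before the third start is shown because serum response factor is the textbook inducer of Egr genes. It lies at -72 to -63, and the 30 bases around it (chr10:67537787-67537816, plus strand, GRCm38.p6, RefSeq) have the box in capitals.
Egr2: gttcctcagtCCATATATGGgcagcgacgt
The windows of starts 3 to 5 overlap and share this box and 2 matches to TGACG. The first start had no match to any motif searched.

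Ier2 and Ier3 are short immediate early genes: Ier2 encodes a nuclear protein of growth-factor-stimulated cells, and Ier3 (IEX-1) a stress-induced regulator of cell survival. Ier2 (A_55_P2163028, chromosome 8, 87186214 to 87186273, minus strand, mm9) gave -2.17, -1.79 and -1.65 in wild type and -1.08, -2.44 and -1.94 in knockout. Knockout replicate 1 was highest and knockout replicate 2 lowest, so the knockout ovaries enclosed all 3 wild-type ovaries. The difference was 0.05 (SE 0.35) and its sign turned on slide 2, at -0.17.

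Ier3 (A_51_P286488, chromosome 17, 35959528 to 35959587, plus strand, mm9) gave -0.43, -0.44 and -0.97 in wild type and 0.20, -0.75 and -0.73 in knockout. Here too knockout replicate 1 was highest, 0.62 above the next array, and the other 2 knockout ovaries lay within the wild-type range. The difference was 0.18 (SE 0.30), and 0.55 on slide 2, where the single wild-type ovary, replicate 3, was the lowest array. It was -0.13 without knockout replicate 1 and 0.004 without wild type replicate 3. The window before the Ier3 start held no match to any motif searched.

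Dusp1 (MKP-1), the phosphatase that switches off MAP kinases after they have induced it, varied more than any other member. Its probe A_51_P430900 (chromosome 17, minus strand) gave -2.32, -1.31 and 0.61 in wild type and -0.52, -2.92 and -1.75 in knockout. Wild type replicate 3 was highest, 1.13 above knockout replicate 1, and the range was 2.93 among wild-type ovaries and 2.40 among knockout ovaries. The difference between the means was -0.73 (SE 0.88), smaller than either range. It was -2.34 on slide 2, where the single wild-type ovary is replicate 3, and 0.08 without that ovary.

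The window before the Dusp1 start (chr17:26508473-26508722, minus strand, GRCm38.p6, RefSeq) is shown because it is the only one among the members with a full CRE, TGACGTCA, in capitals at -143 to -136 and present in 1.55% of all windows. The other capitals, at -191 to -187, mark a further TGACG, and the full element itself counts as 2 overlapping matches to the short form, 1 on each strand.
Dusp1: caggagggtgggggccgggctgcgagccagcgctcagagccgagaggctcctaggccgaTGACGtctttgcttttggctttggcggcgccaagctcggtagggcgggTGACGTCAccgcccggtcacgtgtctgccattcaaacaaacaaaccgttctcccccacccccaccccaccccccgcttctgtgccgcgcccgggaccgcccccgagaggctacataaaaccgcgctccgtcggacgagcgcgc

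Rasgef1b, which encodes an exchange factor that activates Rap GTPases and is induced by inflammatory stimuli, was read by probe A_55_P2035315 (chromosome 5, 99646448 to 99646507, minus strand, mm9). It gave 2.07, 1.87 and 1.24 in wild type and 2.70, 3.31 and 2.87 in knockout. All knockout ovaries were above all wild-type ovaries, by 0.63, and the order within the knockout was not that of Nr4a1: knockout replicate 1, highest in Nr4a1, was the lowest knockout ovary here. The wild-type mean was 1.73 ± 0.43 and the knockout mean 2.96 ± 0.32 (SD, n = 3 each), a difference of 1.23 (SE 0.26), or 2.35-fold. On slide 2 the difference was 1.72.

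The window before the Rasgef1b start (chr5:99252928-99253177, minus strand, GRCm38.p6, RefSeq) is printed for comparison with Nr4a1, the other gene with a wide gap between genotypes. Capitals mark 1 match to TGACG at -114 to -110, on the other strand, and 1 EGR site at -54 to -46.
Rasgef1b: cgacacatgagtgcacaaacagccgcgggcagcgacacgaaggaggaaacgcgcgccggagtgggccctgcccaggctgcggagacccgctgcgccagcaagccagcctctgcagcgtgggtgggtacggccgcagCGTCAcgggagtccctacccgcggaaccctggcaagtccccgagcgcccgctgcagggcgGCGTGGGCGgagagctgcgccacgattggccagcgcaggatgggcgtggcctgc
No entry for Egr1, Egr3 or Ier2 was matched in the table of starts.

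**Figure D3:**
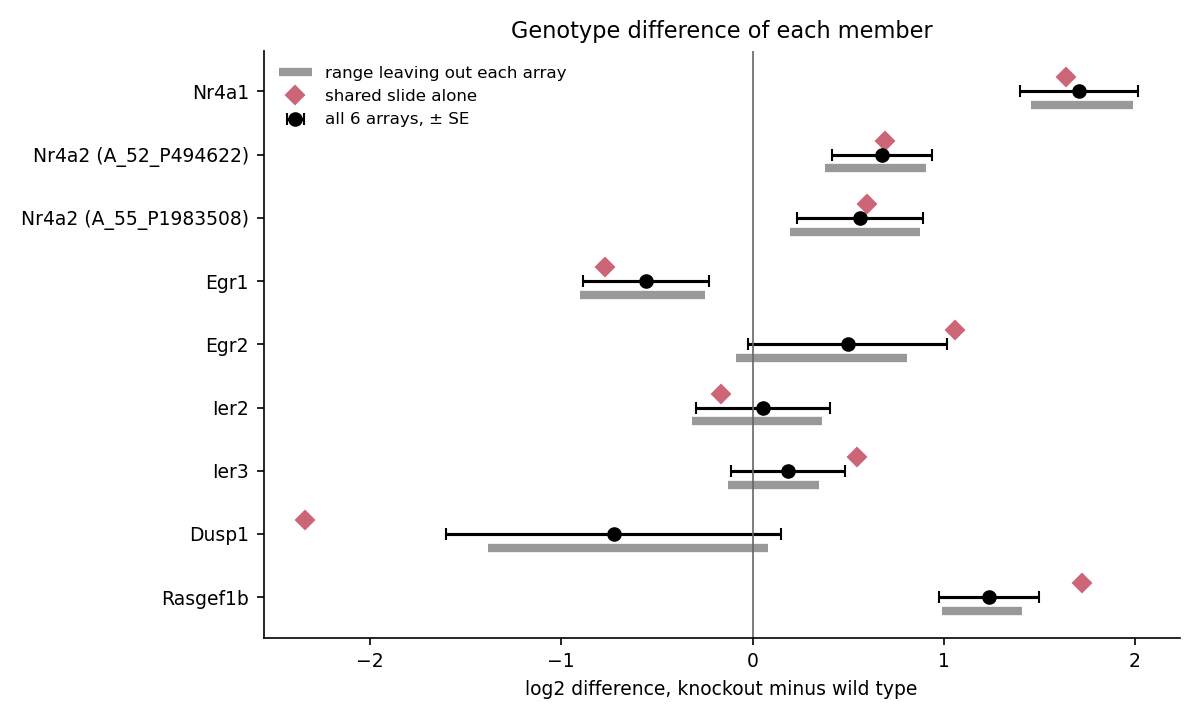
Log2 difference, knockout minus wild type (horizontal axis), of each kept probe (vertical axis), as a black point with its standard error, the value on slide 2 as a diamond and the range when each array is left out as a grey bar. Nr4a1 and Rasgef1b stay between 0.99 and 1.99 when an array is left out, whereas Egr2, Ier2, Ier3 and Dusp1 cross 0.

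The members varied more over the 6 arrays than most genes did. Their standard deviation over the arrays had a median of 0.65, against 0.20 for all kept probes, and ranged from 0.41 for Ier3 to 1.27 for Dusp1. Each exceeded at least 84.7% of kept probes. These spreads include the difference between genotypes, and Nr4a1 and Rasgef1b were chosen with their difference known. Nr4a1 had 1.02 over the 6 arrays, but 0.36 within wild type and 0.53 within knockout. For Rasgef1b these values were 0.76, 0.43 and 0.32. The comparison with all kept probes is therefore a description only. Knockout replicate 1 was the highest array for 4 of the 8, where 12.9% of all kept probes were highest there. Wild type replicate 3 was the highest for Egr1 and Dusp1 (21.5% of all kept probes), and knockout replicate 2 for Nr4a2 and Rasgef1b (22.5%). When each gene was centred on its own mean, the average over the 8 was 0.76 on knockout replicate 1 and lay between -0.36 and -0.04 on the other 5 arrays.

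How the members moved together was measured over the 28 pairs of the 8 genes. Nr4a1, Nr4a2 and Rasgef1b were each split by genotype, so their 3 pairs have no pooled correlation. Among the other 25 pairs, 17 had a Pearson r above 0, 1 had an exact permutation p under 0.05 and 0 passed after Benjamini-Hochberg adjustment. By Spearman's rho 2 had an exact p under 0.05 and 0 passed. With 6 arrays there are 720 pairings, and the smallest p they allow is 0.00139. The slides hold 2 and 4 arrays, too few for a correlation within a slide.

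Egr2 and Ier3 were the closest pair. Their r was 0.990 (exact permutation p = 0.00278, adjusted p = 0.0694, n = 6) and their rho 0.943 (exact p = 0.0167, adjusted p = 0.208). Without knockout replicate 1 and wild type replicate 3 the r was 0.985, but the 4 arrays left fall into 2 clusters by genotype and slide, so this value does not show that the relation holds without the extreme ovaries. After the genotype means were removed, it was 0.996. With quantile normalization, 1 of the 25 pairs passed the adjusted threshold.

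Ier2 and Dusp1 had an r of 0.773 (exact permutation p = 0.0722, adjusted p = 0.665, n = 6) and a rho of 0.943 (exact p = 0.0167, adjusted p = 0.208). Without knockout replicates 1 and 2 the r was 0.895. Egr1 and Dusp1 had an r of 0.635 (exact permutation p = 0.175, adjusted p = 0.665, n = 6) and a rho of 0.829 (exact p = 0.0583, adjusted p = 0.486), and without knockout replicates 2 and 3 it was 0.979. Both of these relations missed the threshold with all 6 arrays.

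With the genotype means removed, which is given without a p, 19 of the 28 pairs had an r above 0, with a median of 0.36. Nr4a1 and Egr1 then had an r of 0.872, although their pooled r was -0.239 (exact permutation p = 0.653, adjusted p = 0.858, n = 6), their rho -0.143 and their r -0.768 without knockout replicate 1 and wild type replicate 1. In both genes knockout replicate 1 was the highest and replicate 3 the lowest of the knockout ovaries, and replicate 1 the lowest of the wild-type ovaries. Rasgef1b and Dusp1 ran opposite, with an r of -0.983 for the deviations and -0.699 for the pooled values (exact permutation p = 0.125, adjusted p = 0.665, n = 6). Their rho was -0.714 (exact p = 0.136, adjusted p = 0.567). The pooled relation rested on knockout replicate 2 and wild type replicate 3, since without them the r was 0.309.

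**Figure D4:**
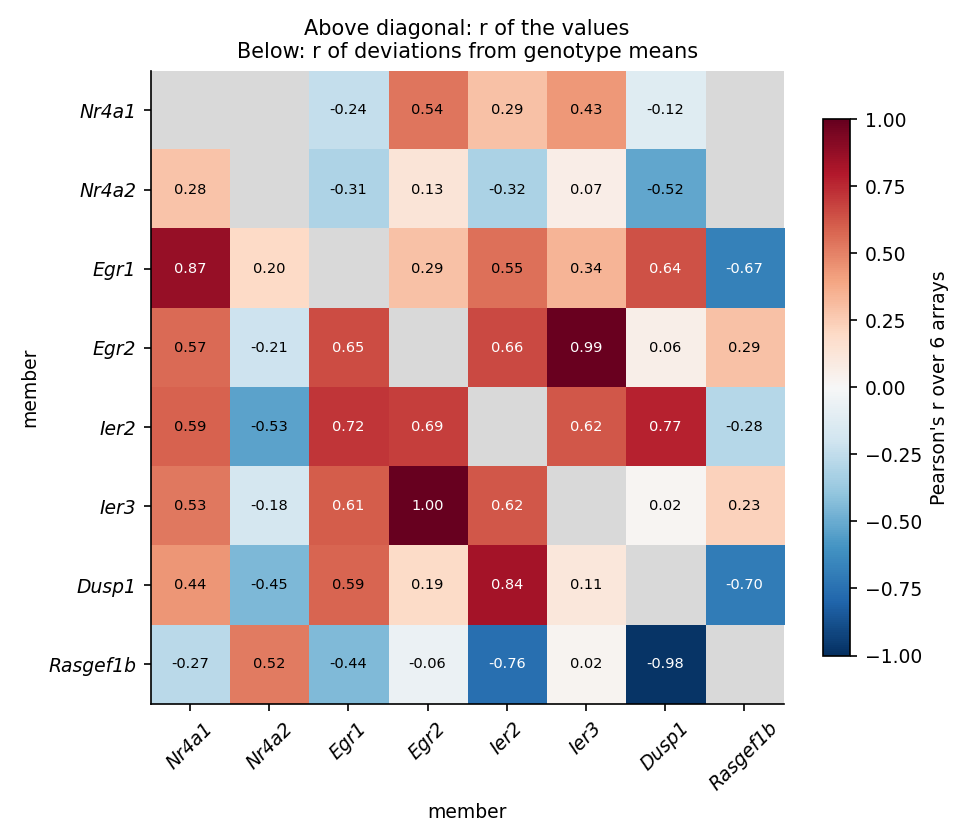
Pearson's r over the 6 arrays for each pair of kept members, of the values (above the diagonal) and of the deviations from the genotype means (below it). Grey cells above the diagonal are the diagonal itself and the 3 pairs split by genotype in both genes, and Egr2 with Ier3 has the highest r of the values, 0.99.

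Other immediate early genes, among them the AP-1 factors Fos and Jun, the Klf factors and the feedback regulators Trib1 and Errfi1, were often highest in one knockout ovary and lowest in another. Of 38 listed, 35 were kept (Fosl1, Egr4 and Zfp36 were not) and 0 were called, with 2 higher and 2 lower at an unadjusted p under 0.05, where 2.2% of all kept probes were higher and 1.75% lower. The mean was higher in the knockout for 21 and lower for 14, with a median difference of 0.08. Knockout replicate 1 was the highest array for 19 of the 35 (54.3%), where 12.9% of all kept probes were highest, and knockout replicate 2 the lowest for 21 of the 35 (60.0%), where 21.5% of all kept probes were lowest. The median difference was -0.13 without knockout replicate 1 and 0.28 without knockout replicate 2.

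Several of these genes had a single high ovary, as Egr2 did. Fosb, an AP-1 subunit, gave -3.81, -3.70 and -4.21 in wild type and -1.62, -3.39 and -3.76 in knockout. Arc, an immediate early gene of neurons, gave -3.53, -3.36 and -3.89 against -1.07, -3.93 and -3.81. Errfi1, which restrains the EGF receptor, gave 1.19, 1.65 and 1.78 against 2.99, 0.59 and 0.68. Knockout replicate 1 was above the other 5 ovaries in all 3 genes, which were picked as examples after their values were seen. Fos did not share this: it gave -0.99, -1.24 and -1.86 in wild type and -1.40, -1.81 and -1.79 in knockout, with wild type replicate 1 highest.

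The 4 genes of this list with the smallest p had genotypes that did not overlap. Sik1, a kinase induced by cyclic AMP that restrains the CRTC coactivators, gave -2.74, -2.81 and -2.70 in wild type and -1.21, -1.65 and -1.25 in knockout, a difference of 1.38 (SE 0.15, adjusted p = 0.336 by limma). Per1, a clock gene with a cyclic AMP response, differed by 0.52 (SE 0.12), Klf6 by -0.44 (SE 0.11) and Myc by -0.69 (SE 0.14). None of the 4 passed the adjusted threshold here, and Sik1 alone passed it in 1 of the 17 alternatives described at the end. Over all kept probes, 4.06% stood apart as higher in the knockout and 4.7% as lower.

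**Figure D5:**
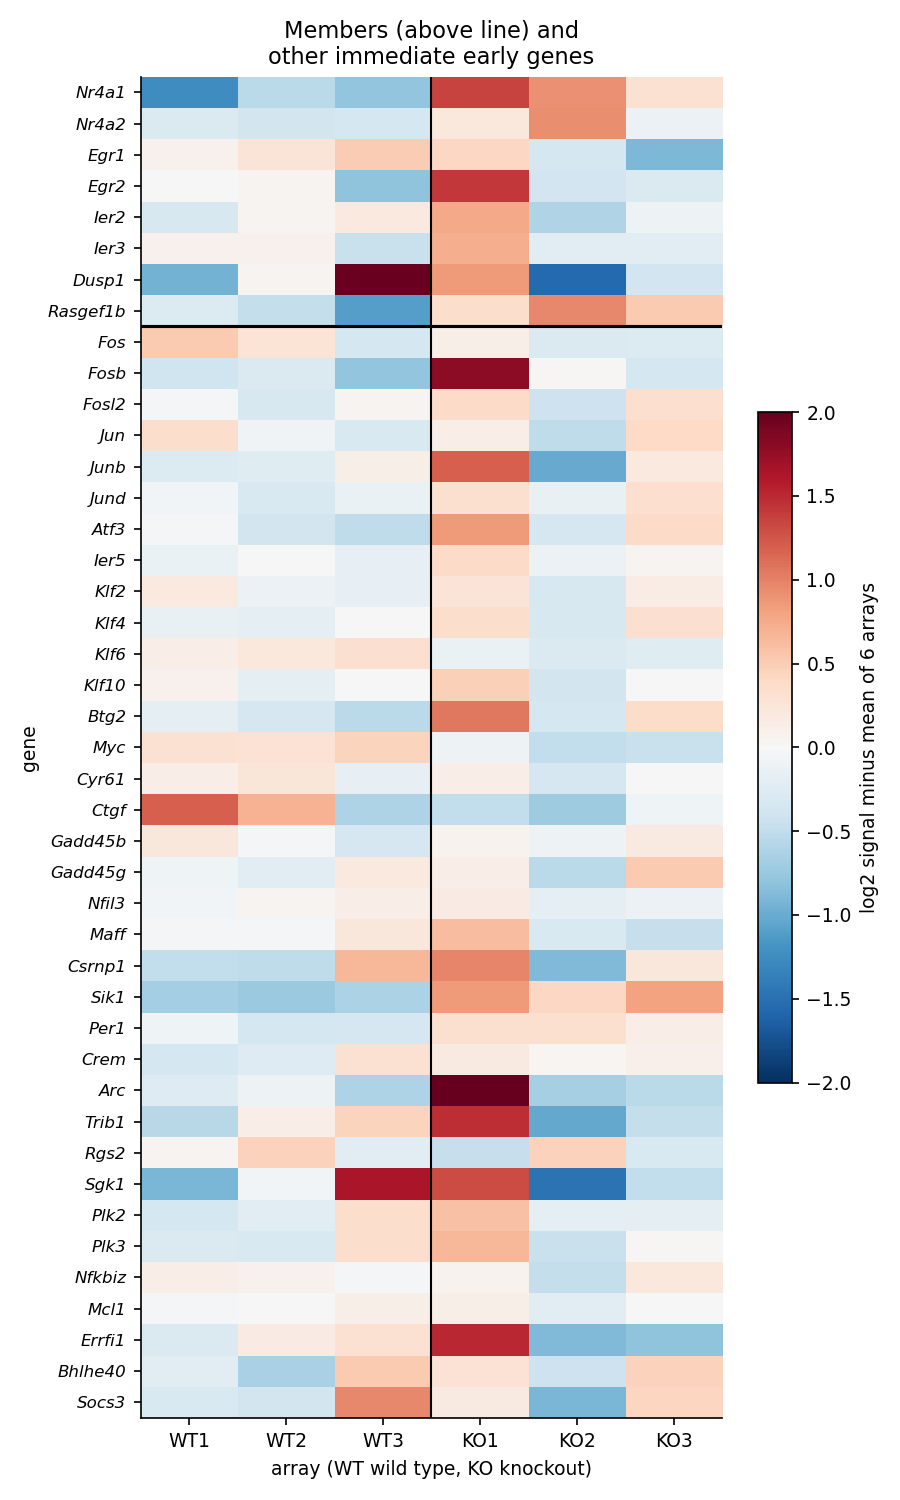
Log2 signal of each gene (vertical axis) on each of the 6 arrays (horizontal axis), minus the gene's mean over the arrays, with the 8 kept members above the line and 35 other immediate early genes below it. The KO1 column is the highest for 4 of the 8 members and 19 of the 35 other genes, and the KO2 column is the lowest for 21 of the 35.

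Partners, inhibitors and relatives of the members, such as the RXR receptors that pair with Nr4a proteins, the NAB corepressors of Egr proteins, the other Dusp phosphatases and the Sprouty family, were kept in 22 of 22. Of these, 12 were higher and 10 lower, 0 were called, and 1 (Spred2, lower) had an unadjusted p under 0.05, where 1.75% of all kept probes were lower, with a median difference of 0.01. Knockout replicate 1 was the highest array for 13 of the 22 (59.1%). Nab2, the corepressor that Egr factors induce, gave 2.06, 2.04 and 2.07 in wild type and 2.68, 2.11 and 2.01 in knockout, so that only knockout replicate 1 left the level of the others, and it was chosen after its values were seen. By the smallest p, Spred2 differed by -0.47 (SE 0.13), Dusp8 by 0.73 (SE 0.37), Rxrg by 0.23 and Spry2 by 0.34, none of them called, and Spry2 was well above background on 2 of the 3 wild-type arrays.

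The kinases and factors that induce the members, among them serum response factor, the CREB and CRTC proteins and the MAP kinases, were also listed. Of 23 listed, 22 were kept (Camk4 was not), 9 were higher and 13 lower, 0 were called, and 1 (Crtc1, higher) had an unadjusted p under 0.05, where 2.2% of all kept probes were higher. Knockout replicate 1 was the highest array for 3 of the 22 (13.6%), where 12.9% of all kept probes were highest there, and the median difference was -0.01. Srf, which encodes serum response factor, and its partner Elk3 were among the 3: Srf gave 0.92, 0.90 and 0.89 in wild type and 1.48, 0.86 and 1.09 in knockout. Crtc1, a coactivator of CREB, differed by 0.36 (SE 0.10), Srf by 0.24 (0.07 without knockout replicate 1) and Elk3 by 0.16 (0.06 without it). These are levels of message, and the activity of these proteins was not measured.

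No gene listed for the luteinizing hormone response was called, and several of its best-known members were dim. Of 19 listed, 13 were kept, and Areg, Ereg, Btc, Pgr, Ptgs2 and Has2 were not well above background on all 3 arrays of either genotype. Of the 13, 7 were higher and 6 lower, 0 were called and 0 had an unadjusted p under 0.05 (3.95% of all kept probes). The median difference was 0.11, and it turned to -0.27 with the slide as a block and to -0.06 without knockout replicate 1. Tnfaip6, a matrix-binding protein of the expanding cumulus, gave -4.67, -5.31 and -5.54 in wild type and -3.21, -5.06 and -2.03 in knockout, with 2 of the 3 wild-type values well above background. Its difference was 1.74 (SE 0.73), and those of Ptx3, Ptges and Efnb2 were 0.56, 0.17 and -0.28. Wild type replicate 3 was the highest array for 6 of the 13 and knockout replicate 2 the lowest for 7, where 21.5% of all kept probes were highest and 21.5% lowest on these arrays.

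Several lists of markers of other cells had their extremes on the same knockout ovaries, and others did not. Of all kept probes, 12.9% were highest on knockout replicate 1, 22.5% on knockout replicate 2 and 15.8% on knockout replicate 3. The shares that were lowest were 18.8% on knockout replicate 1, 21.5% on knockout replicate 2 and 24.8% on wild type replicate 3. Of 10 macrophage and myeloid markers, 8 were highest on knockout replicate 1 and 8 lowest on knockout replicate 2, and their summed signal, in units of the 75th percentile, was 13.7 to 15.2 in wild type and 12.9 to 18.9 in knockout. None was absent, though S100a8 was well above background on only 2 wild-type arrays. Of 7 endothelial markers, 4 were highest on knockout replicate 1, with sums of 6.22 to 8.01 in wild type and 6.56 to 7.86 in knockout. Knockout replicate 2 had the lowest sum of the 6 corpus luteum markers, 21.0 against 76.8 to 130 in wild type and 91.2 and 110 in the other knockout ovaries. Of 7 surface epithelium markers, 6 were lowest on knockout replicate 1, whose sum of 26.8 lay under the 37.1 to 50.9 of wild type and the 41.8 and 42.0 of the other knockout ovaries. Knockout replicate 2 also had the highest sum of 4 red cell markers, 56.0 against 6.38 to 14.1 on the other arrays. Of 10 granulosa markers, 6 were highest on knockout replicate 3 and 0 on knockout replicate 1, and 7 were lowest on wild type replicate 3. Of 5 kept theca and interstitium markers, 3 were highest on knockout replicate 2 and 4 lowest on wild type replicate 3. Fdx1, the brightest of the 5 and named after its values were seen, went the other way. It was highest on wild type replicate 3 (7.48) and lowest on knockout replicate 2 (5.86). The summed signal of the 5 was likewise highest on wild type replicate 3 (187) and lowest on knockout replicate 2 (72.4). The part of these cells in the members' values was not tested.

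Adjacent tissue differed between single ovaries as well. The 3 kept oviduct markers summed to 29.1 in wild type replicate 2 and to between 0.11 and 0.59 elsewhere, with Foxj1 and Pax8 not kept. The 3 kept adipocyte markers summed to 16.6 in wild type replicate 1 and to between 1.02 and 1.91 elsewhere, with Adipoq and Lep not kept. Neither ovary carried the highest value of any member. Wild type replicate 1 was, however, the lowest array for Nr4a1, and wild type replicate 2 for Nr4a2. The part of adjacent tissue in the members' values was not tested. All 8 oocyte markers, all 5 smooth muscle markers and all 3 kept oviduct markers had a lower mean in the knockout. The oviduct marker Agr2, chosen after its values were seen, gave -4.93, -2.26 and -3.82 in wild type and -6.35, -7.94 and -8.53 in knockout. It was well above background on 0 knockout arrays, with intensities of 20, 6 and 4 there, and was kept through its wild-type arrays alone. Its genotypes did not overlap, where 4.7% of all kept probes stood apart as lower. Since the gene was kept and picked through its high wild-type values, nothing is read from this. On slide 2 alone all 8 oocyte markers turned, and were higher in the knockout than in the single wild-type ovary by 0.19 to 0.42. The summed signal was 26.7 to 49.5 in wild type and 26.6 to 48.3 in knockout for the oocyte list. For smooth muscle the sum was 26.2 to 33.7 in wild type and at its lowest 19.6 in knockout. The granulosa sum was 175 to 292 in wild type and 199 to 336 in knockout, so that the ranges overlapped in all of these lists.

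Across the array, 4810 probes with a standard deviation of at least 0.3 were compared with the average centred profile of the 8 members over the 6 arrays, as a description. An r of at least 0.9 was found for 57 and of at most -0.9 for 42. The most alike were Tbkbp1 (0.982), Sema6b (0.974), Kcna5 (0.972), Ankrd13b (0.970), Ascc2 (0.970), Spdef (0.969), Fam160a1 (0.969) and Tnfaip8l1 (0.966). Kcna5, a potassium channel, gave -5.15, -4.83 and -4.59 in wild type and -3.45, -4.90 and -4.99 in knockout, again with a single high ovary. The least alike were Nudt17 (-0.972), Epcam (-0.967), Stab1 (-0.964) and Als2cr12 (-0.963). Stab1, a scavenger receptor of macrophages and sinusoidal endothelium, gave 0.51, 0.31 and 0.58 in wild type and -2.73, 0.27 and 0.69 in knockout, so that knockout replicate 1 alone was low. Of the members themselves, which make up the profile, Egr2 (0.819), Nr4a1 (0.780), Ier2 (0.780) and Ier3 (0.744) followed it, and Dusp1 (0.359), Egr1 (0.338), Nr4a2 (0.334) and Rasgef1b (0.287) did so loosely.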

How the data were processed

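The deposited values are scanner intensities of single-colour arrays (Cy3), 1 file per ovary, per the file headers made with Agilent Feature Extraction 10.7.1.1, with probe positions on mm9. The authors' processed signal is background-subtracted and was used as deposited. From it, log2 of the signal minus the 75th percentile over 43020 non-control spots was taken, without spots marked as outliers (192 to 459 per array), and spots of a probe were averaged. Probes were kept if either genotype had all 3 arrays well above background (24326 probes, 19385 gene names). Where its only spot was an outlier on an array, the fit left that array out, which touched no gene of the lists. For all genes, knockout was compared with wild type by limma 3.58.1 (lmFit and eBayes, R 4.3.3), two-sided, with Benjamini-Hochberg adjustment over all kept probes and a threshold of 0.05. A log2 difference is knockout minus wild type.

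The members and lists were chosen with earlier results of these data known. Beyond the members and Selenbp1, the 4 genes of each list with the smallest p were named, then the 8 probes most like and the 4 least like the mean member profile, leaving out clone names, and any other gene is said to have been chosen after its values were seen. One gene that this rule names is not reported here. Where a gene had several probes, the one with the highest mean signal stood for it. Pairs of members were tested by exact permutation over 6 arrays, leaving out in turn the 2 arrays farthest from the first gene's median. Promoter windows of 250 bases came from RefSeq (GRCm38.p6), where 7 of 10 members were matched. No mm9 annotation was used here, so the exon or untranslated region of a probe is not given. The fit was tested on simulated data. The number of arrays limits the precision. The alternatives were quantile and median scaling, normexp correction (offset 50), the deposited series table, other filters, the slide as a block, slide 2 alone, the replicate number as a block, array weights, and each array left out. The series table, a linear signal with equal medians of 120 on every array, ranks probes as the scanner files do, and the authors' steps in making it are not given in the sources used here. Python 3.11.15, pandas 2.3.3, numpy 2.4.6, scipy 1.17.1 and matplotlib 3.10.9 were used.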

Additional observations from a re-analysis of the deposited data

How the results depend on the processing

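Under all 17 alternatives 0 members were called, and Nr4a1, Nr4a2, Egr1 and Rasgef1b kept the sign of their difference. Over these alternatives Nr4a1 differed by 1.35 to 1.99 and Rasgef1b by 0.99 to 1.72. The count of members with a higher knockout mean ranged from 3 to 7 when each array was left out, and the median member difference from -0.11 to 0.55, with both lowest values without knockout replicate 1. When each array was left out, the difference ranged from -0.088 to 0.81 for Egr2 and from -0.13 to 0.35 for Ier3 (both lowest without knockout replicate 1), from -0.32 to 0.37 for Ier2 (below 0 without knockout replicate 1 or wild type replicate 1, the latter at -0.10) and from -1.38 to 0.080 for Dusp1 (above 0 without wild type replicate 3). Ier3 was also -0.010 with array weights, and Ier2 -0.17 with the slide as a fixed block or on slide 2 alone. The cause of these turns was not tested. Genes called went from 1 to 0 with no filter, with the slide as a fixed block and on slide 2 alone, to 6 with array weights, and to between 0 and 19 when each array was left out. Where 0 were called by limma, 615 to 2388 probes had an unadjusted p under 0.05, against 962 of 24326 with all arrays and no block. With the replicate number of the sample descriptions as a block, 0 genes and 0 members were called, and 1023 probes had an unadjusted p under 0.05. The labels name no pairing of same-numbered samples. Their deviations from the genotype means correlated at -0.33, 0.30 and -0.03, and those of differently numbered samples at -0.30 to 0.36. With so few samples these values cannot show whether same-numbered samples were handled together. Member pairs past the adjusted threshold went from 0 to 1 with quantile normalization. On slide 2 wild type is 1 ovary, so its spread is taken from the knockout. Nr4a3 and Egr3 lay at background, which sets a limit on what these arrays show of them.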
